A study of Mus musculus with 19 samples.

Results

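RNA of lineage-negative, Sca+ and cKit+ cells was compared between 4 groups of leukemic mice that carry Flt3-ITD and wild-type mice, with each leukemic group given the same weight. Genes were taken as common to the leukemic groups when the mean of the 4 groups differed from wild type and each group on its own differed from wild type in the same direction. The rule found 91 genes (93 RefSeq accessions) among 11455 tested genes (11830 accessions): 33 genes were higher and 58 were lower in all 4 groups, and the 93 accessions were 0.786% of those tested. All mice were C57BL/6. The wild-type group (4 libraries, wt1 to wt4) was untreated. Mice with Idh2 R140Q;Flt3-ITD received vehicle (3 libraries, headed V3, V3-2 and V9) or the IDH2 inhibitor AG-221 (4 libraries, AG1, AG8, AG12 and AG13). Mice with Tet2-/-;Flt3-ITD, spelled Flt3-IDT in the labels, received vehicle (4 libraries, V1, V5, V5-2 and V19) or 5-Aza (4 libraries, AZ10, AZ11, AZ16 and AZ17). AG-221 was dosed orally 2 times per day over 4 to 5 weeks, 100 mg/kg as single treatment and 40 mg/kg when combined, and the dose of each library is not given. Each of 4 cycles of 5-Aza, of 21 days, had 5 days of intraperitoneal 5 mg/kg; the series text names the agent 5-Azacytidine and also Decitabine. Values for single libraries are given in the order of these names.

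FLT3 is a receptor tyrosine kinase of early progenitors. Internal tandem duplications of its juxtamembrane part make it signal without ligand, chiefly through STAT5, the RAS-MAPK cascade and PI3K-AKT. STAT5 is known to induce feedback inhibitors such as Cish and Socs2 and the Pim kinases, and MAPK activity is known to induce its own inhibitors of the Dusp, Spry and Spred families. The sorted compartment, called LSK, normally holds stem cells and multipotent progenitors, among them lymphoid-primed progenitors that begin to transcribe B-lineage genes. IDH2 R140Q makes 2-hydroxyglutarate, which inhibits TET enzymes, AG-221 blocks that enzyme, and 5-azacytidine lowers DNA methylation.

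No group carried Flt3-ITD alone and no wild-type mouse was leukemic or received vehicle, so Flt3-ITD, the partner mutation, leukemia and dosing cannot be told apart in the comparison with wild type. Ages, sexes and the number of animals are not given, and the labels do not state that each library came from its own animal, so p-values reflect only how far these libraries spread. Library totals ran from 9635795 to 20383132 counts. Library V1 had the fewest accessions with a count (12088, against up to 15509), and V3, V3-2 and V5-2 lay furthest out on the first principal component, which held 28.3% of the variance. V3 and V3-2 share a number in their names, as do V5 and V5-2, and each pair may come from 1 animal, which the labels do not say; they were fitted as separate libraries. Flt3 itself had 328, 303, 534 and 465 CPM (counts per 1000000, scaled by trimmed mean of M-values factors) in wild type and 58.3 to 666 CPM in the 15 leukemic libraries, a log2 difference of -0.68 ± 0.31 (SE; adjusted p = 0.17). Tet2 differed by -0.23 ± 0.24 (adjusted p = 0.58) and Idh2 by 0.64 ± 0.30 (adjusted p = 0.183); counts over a whole gene do not check the engineered alleles. Kit and Ly6a, which encode cKit and Sca-1, had counts at or near 0 in every library, so the gate could not be checked with them. In bulk RNA, fewer cells of a type and less RNA per cell cannot be told apart.

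Across the transcriptome, 1330 accessions (11.2% of those tested) differed between the leukemic mean and wild type at an adjusted p under 0.05 in edgeR's quasi-likelihood test; 351 were higher (2.97%) and 979 were lower (8.28%). All 4 groups had the same sign for 331 of the higher accessions (2.80% of those tested) and 937 of the lower (7.92%), and 62 (0.524%) had a group of the opposite sign. Taken alone against the same wild-type libraries, the IDH2-FLT3 vehicle group differed at 2428 accessions (20.5%), the TET2-FLT3 vehicle group at 1199 (10.1%), the AG-221 group at 321 (2.71%) and the 5-Aza group at 203 (1.72%). The 4 comparisons share their wild-type libraries. The common rule kept 34 accessions higher (0.287% of those tested) and 59 lower (0.499%). The 5-Aza comparison set the limit most often: 103 accessions with 1 sign throughout missed the rule only there, against 27 that missed it only in the AG-221 group, 13 only in the IDH2-FLT3 vehicle group and 6 only in the TET2-FLT3 vehicle group.

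Since these contrasts chose the common genes, their p-values against wild type describe the choice. Differences among the leukemic groups and between drug and vehicle were not contrasts of the rule, but a call in every group limits how far the groups can differ. The higher accessions had log2 differences from 1.10 for Padi4 to 7.84 for Ccn3 with a median of 3.35, and 19 of the 34 were at least 8-fold higher. The lower accessions were shifted further, with a median of -4.33, or -4.32 when 11 accessions with a group at 0 counts were set to a limit of 3 counts over that group, and 45 of the 59 were at least 8-fold lower. Among lower accessions with counts in every group, the log2 difference ran from -1.10 for Nceh1 to -7.23 for Vpreb3. All 15 leukemic libraries lay above all 4 wild-type libraries for 29 of the 34 higher accessions and below them for all 59 lower ones. Over all tested accessions this held for 0.634% and 2.92%, but the rule chose the accessions on these libraries, so the separation describes the choice. The exceptions were Ncam2, Gldc, Mfsd2a, Cish and Nhsl2, each of which had at least 1 leukemic library within or under the wild-type range. In wild type, 13 of the higher accessions were under 1 CPM, and in the leukemic mean 31 of the lower ones were, so that many common genes were near silent on 1 side.

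**Figure D1:**
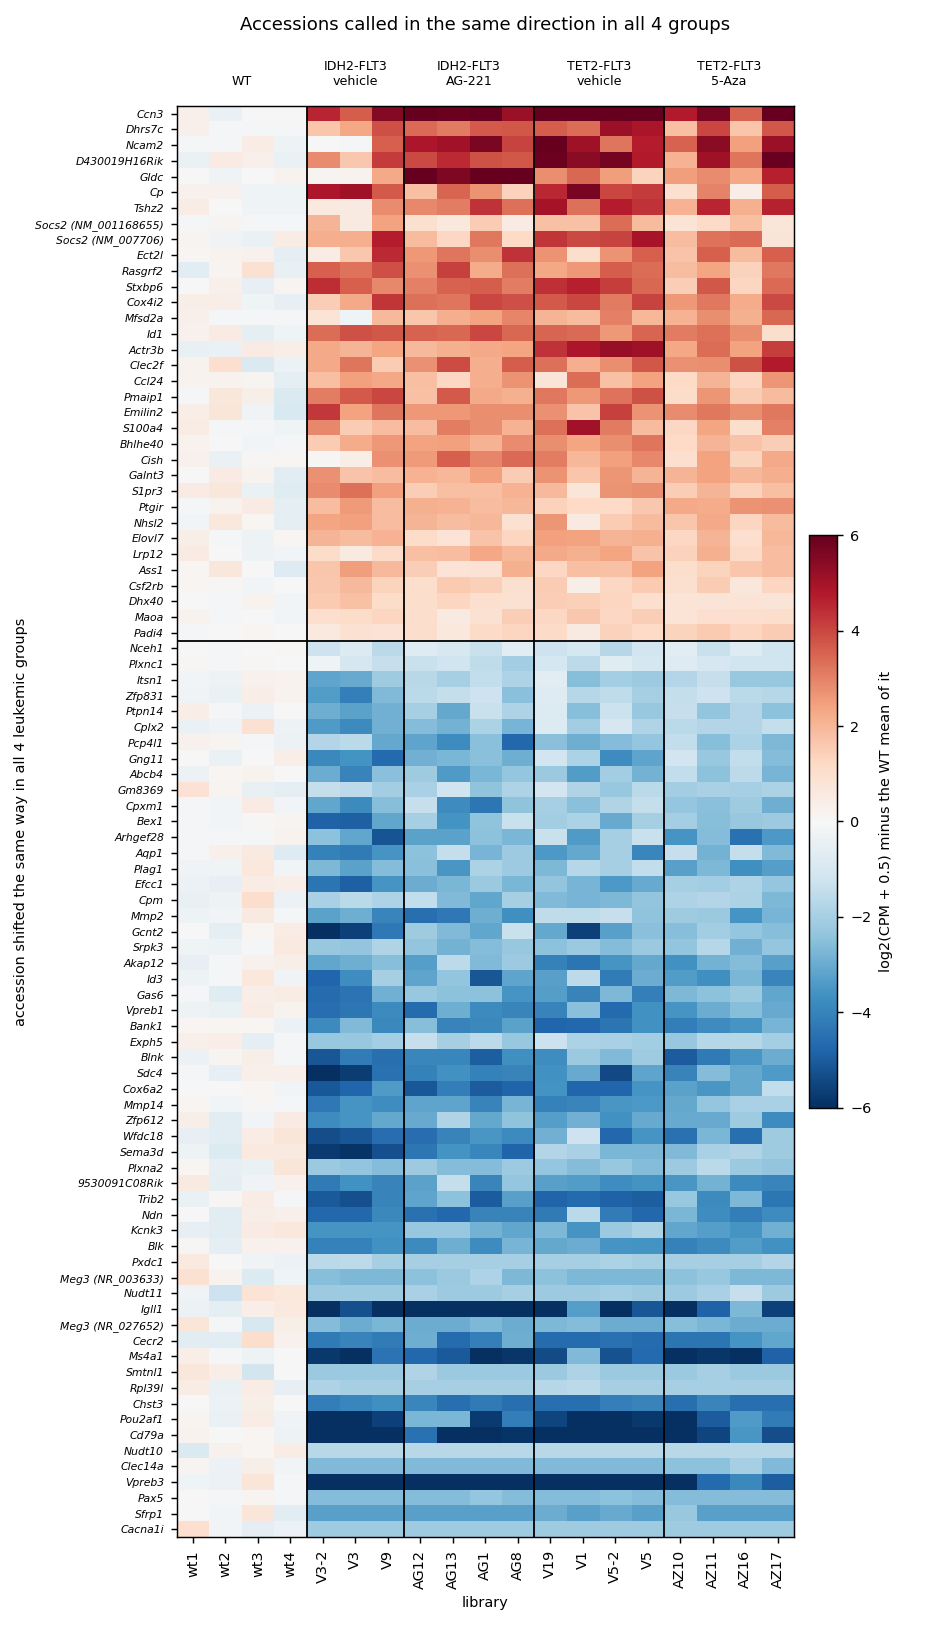
Level of 91 of the 93 common accessions (rows) in the 19 libraries (columns), as log2(CPM + 0.5) minus the mean of the 4 wild-type libraries, with the higher accessions above the lower ones. The 34 higher accessions are above wild type and the 57 lower ones shown are below it across the 15 leukemic libraries, apart from single libraries of the 5 accessions whose groups overlap.

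Cytokine feedback and receptor genes stood among the higher members. Cish, a STAT5-induced inhibitor of cytokine receptors (NM_009895), had 34.2, 21.6, 30.0 and 30.2 CPM in wild type, 37.3, 30.0 and 192 in IDH2-FLT3 vehicle and 223, 309.6, 170.4 and 349 in AG-221. In TET2-FLT3 mice it had 116, 213, 161 and 241 CPM with vehicle and 57.4, 155, 73.2 and 139 with 5-Aza. V3-2 lay within the wild-type range and V3 just above it, while every other leukemic library was at 57.4 CPM or more. The log2 difference of the leukemic mean was 2.32 ± 0.43 (SE; adjusted p = 9.86e-04). The promoter windows of Cish and of Emilin2 are shown because they are the only ones among the 20 higher genes with a RefSeq window that hold TTCNNNGAA, the palindrome bound by STAT5 dimers. Each window holds 250 bases before and 50 bases after the RefSeq start in GRCm38.p6, at chr9:107296409-107296708 on the plus strand for Cish and chr17:71310962-71311261 on the minus strand for Emilin2, with the matches in capitals.
Cish: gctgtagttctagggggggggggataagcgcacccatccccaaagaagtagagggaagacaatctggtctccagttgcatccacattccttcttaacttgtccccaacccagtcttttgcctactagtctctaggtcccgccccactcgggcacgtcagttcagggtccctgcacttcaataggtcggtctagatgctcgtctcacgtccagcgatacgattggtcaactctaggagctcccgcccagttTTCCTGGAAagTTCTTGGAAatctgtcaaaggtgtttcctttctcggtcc
Emilin2: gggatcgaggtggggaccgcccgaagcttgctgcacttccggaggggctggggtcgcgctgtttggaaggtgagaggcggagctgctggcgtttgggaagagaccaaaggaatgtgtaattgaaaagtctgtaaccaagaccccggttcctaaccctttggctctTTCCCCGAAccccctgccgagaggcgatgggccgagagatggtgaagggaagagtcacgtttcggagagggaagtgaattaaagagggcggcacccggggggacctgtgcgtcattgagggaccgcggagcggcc
The Cish window holds 2 matches, at bases 251 and 262 of the window, and the Emilin2 window 1, at base 166. The motif reads the same on both strands. Among genes with a window, the motif was present for 2 of 20 higher genes (10%) and 2 of 44 lower genes (4.55%, Cacna1i and Gcnt2). Over the tested genes it was present for 720 of 8962 (8.03%), each gene counted once. Socs2, Id1, Csf2rb and Ccn3 were not matched to a window.

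Socs2, a second STAT5-induced suppressor of cytokine and growth hormone receptors, had almost no counts in wild type. Its main accession (NM_007706) had 0.230, 0.0755, 0 and 0.403 CPM in wild type, 2.44, 2.45 and 16.6 in IDH2-FLT3 vehicle and 5.44, 1.001, 1.94 and 1.07 with AG-221. Among the TET2-FLT3 libraries it had 9.68, 19.9, 10.5 and 12.3 CPM with vehicle and 1.86, 5.74, 6.53 and 0.631 with 5-Aza. No leukemic library fell into the wild-type range, and the 2 drug-treated groups held the lowest leukemic values. The log2 difference was 4.84 ± 0.89 (SE; adjusted p = 9.83e-04). A second common accession of the gene (NM_001168655) had 1 count over the 4 wild-type libraries and 282 over the 15 leukemic ones.

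Id1, an inhibitor of basic helix-loop-helix transcription factors, was higher in all 4 groups as well. Its levels were 4.98, 5.96, 2.64 and 3.30 CPM in wild type, 63.8, 46.4 and 59.6 in IDH2-FLT3 vehicle and 72.8, 49.0, 51.9 and 48.3 with AG-221. In TET2-FLT3 mice they were 47.3, 50.03, 27.2 and 50.4 CPM with vehicle and 38.4, 44.5, 31.0 and 9.02 with 5-Aza. Library AZ17 was the lowest leukemic library and was still above every wild-type one. The log2 difference was 3.42 ± 0.37 (adjusted p = 3.54e-06), and the 4 leukemic groups did not differ at the threshold (adjusted p = 0.25).

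Csf2rb, the signalling chain shared by the receptors for IL-3, IL-5 and GM-CSF, was the only common gene among 25 tested cytokine receptors. It had 109.5, 108, 90.9 and 98.6 CPM in wild type, 391, 314 and 257 in IDH2-FLT3 vehicle and 271, 197, 212 and 299 with AG-221. With vehicle the TET2-FLT3 libraries had 128, 304, 241 and 289 CPM and with 5-Aza 195, 294, 164 and 245. The groups did not overlap, the log2 difference was 1.33 ± 0.23 (adjusted p = 4.96e-04), and reads shared with its near-copy Csf2rb2 make the count uncertain. Pim2 and Pim1, survival kinases induced by STAT5, rose in the leukemic mean, by 1.66 ± 0.46 (adjusted p = 0.0214) and 1.49 ± 0.43 (adjusted p = 0.0272), but neither was common: in IDH2-FLT3 vehicle the log2 difference was 0.10 for Pim2 (adjusted p = 0.912) and 0.91 for Pim1 (adjusted p = 0.219).

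Ccn3, a secreted matricellular protein also called NOV, had the largest positive shift of the common genes. It had 0.306, 0, 0.165 and 0.161 CPM in wild type, 7.67, 15 and 29.1 in IDH2-FLT3 vehicle and 97.9, 23.0, 40.8 and 37.7 with AG-221. The TET2-FLT3 libraries had 98.9, 51.0, 99.3 and 117 CPM with vehicle and 16.8, 33.2, 7.13 and 51.3 with 5-Aza. Every leukemic library was at 7.13 CPM or more against at most 0.306 in wild type, where 8 counts were seen in all. The log2 difference was 7.84 ± 0.77 (adjusted p = 1.13e-06), and the groups differed among themselves (adjusted p = 0.029), from 6.69 in IDH2-FLT3 vehicle to 9.10 in TET2-FLT3 vehicle.

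Pmaip1, the pro-apoptotic BH3-only protein Noxa, rose in all 4 groups. It had 1.69, 3.32, 2.56 and 0.806 CPM in wild type, 30.4, 19.7 and 38.4 in IDH2-FLT3 vehicle and 11.3, 10.1, 7.58 and 30.1 with AG-221. TET2-FLT3 cells had 14.3, 33.9, 22.5 and 21.2 CPM with vehicle and 4.61, 14.4, 6.45 and 8.39 with 5-Aza. The lowest leukemic library, AZ10, was above the highest wild-type one, and the log2 difference was 3.02 ± 0.47 (adjusted p = 1.64e-04). Of 19 tested p53 target genes, Cdkn1a, Perp and Pmaip1 rose, Plk2 fell and 15 did not pass the test, against 2.99% higher and 8.27% lower over all genes; Cdkn1a, the cell cycle inhibitor p21, reached only 0.699 CPM in the leukemic mean.

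Emilin2 is an extracellular matrix glycoprotein that monocytes also transcribe. It had 28.8, 35.8, 18.2 and 11.1 CPM in wild type, 115, 419.7 and 204 in IDH2-FLT3 vehicle and 151, 152, 133 and 135 with AG-221. With vehicle the TET2-FLT3 libraries had 72.4, 143, 373 and 147 CPM and with 5-Aza 158, 199, 149.6 and 193. V3-2 and V5-2 held the highest values, and the groups did not overlap. The log2 difference was 2.96 ± 0.42 (adjusted p = 6.51e-05).

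Bhlhe40, a helix-loop-helix repressor, and Actr3b, an Arp3-type actin-related protein, separated cleanly from wild type and differed among the leukemic groups. Bhlhe40 had 8.73, 7.47, 6.69 and 7.09 CPM in wild type and 17.6, 40.1 and 73.3 as the lowest, median and highest of the leukemic libraries, with a log2 difference of 2.35 ± 0.26 (adjusted p = 4.16e-06). Actr3b had 0.996, 1.06, 2.39 and 2.18 CPM in wild type, 7.93, 9.62 and 10.3 in IDH2-FLT3 vehicle and 9.46, 10.2, 7.49 and 8.499 with AG-221. In TET2-FLT3 mice it had 59.3, 68.6, 77.8 and 41.6 CPM with vehicle and 9.71, 20.2, 10.6 and 35.6 with 5-Aza. The TET2-FLT3 vehicle libraries stood above all others. The log2 difference from wild type was 3.41 ± 0.39 (adjusted p = 4.98e-06), and Actr3b was the only higher common gene that differed between genotypes (IDH2-FLT3 minus TET2-FLT3 over both arms -1.92 ± 0.29, adjusted p = 5.62e-04).

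The remaining higher genes had varied roles, and their log2 differences are given with standard errors. Shifts of at least 4-fold were seen for Cox4i2, a cytochrome c oxidase subunit (3.53 ± 0.49), Stxbp6, a SNARE-binding protein (3.79 ± 0.50), Rasgrf2, a RAS and RAC exchange factor (4.04 ± 0.71), Cp, the copper-binding ferroxidase ceruloplasmin (5.76 ± 0.97), Tshz2, a zinc-finger factor (5.65 ± 0.99), and Clec2f, a lectin-like surface protein (3.38 ± 0.58). So were those of S100a4, a calcium-binding protein (2.68 ± 0.50), Ccl24, an eosinophil chemokine (3.31 ± 0.69), Galnt3, which starts O-glycans (2.27 ± 0.32), Ncam2, an adhesion molecule (6.36 ± 1.19), Mfsd2a, a lysophospholipid transporter (3.50 ± 0.67), Ect2l (4.17 ± 0.88) and D430019H16Rik (6.01 ± 0.91). Dhrs7c, a dehydrogenase, had 2 counts over the wild-type libraries and 1376 over the leukemic ones. Receptors for lipid mediators were represented by S1pr3, for sphingosine 1-phosphate (2.08 ± 0.35), and Ptgir, for prostacyclin (2.04 ± 0.26). Metabolic enzymes were Gldc of the glycine cleavage system (5.82 ± 0.93), Ass1 of arginine synthesis (1.66 ± 0.31), Elovl7, which elongates fatty acids (1.82 ± 0.24), and Maoa, which oxidizes monoamines (1.14 ± 0.18). Smaller shifts were those of Nhsl2 (1.87 ± 0.33), the receptor-like Lrp12 (1.70 ± 0.24), the helicase Dhx40 (1.18 ± 0.17) and Padi4, a histone-citrullinating enzyme of granulocytes (1.10 ± 0.18). Padi4 was at 83.6, 86.2, 94.5 and 89.2 CPM in wild type and 130.5 to 262 CPM in the leukemic libraries.

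**Figure D2:**
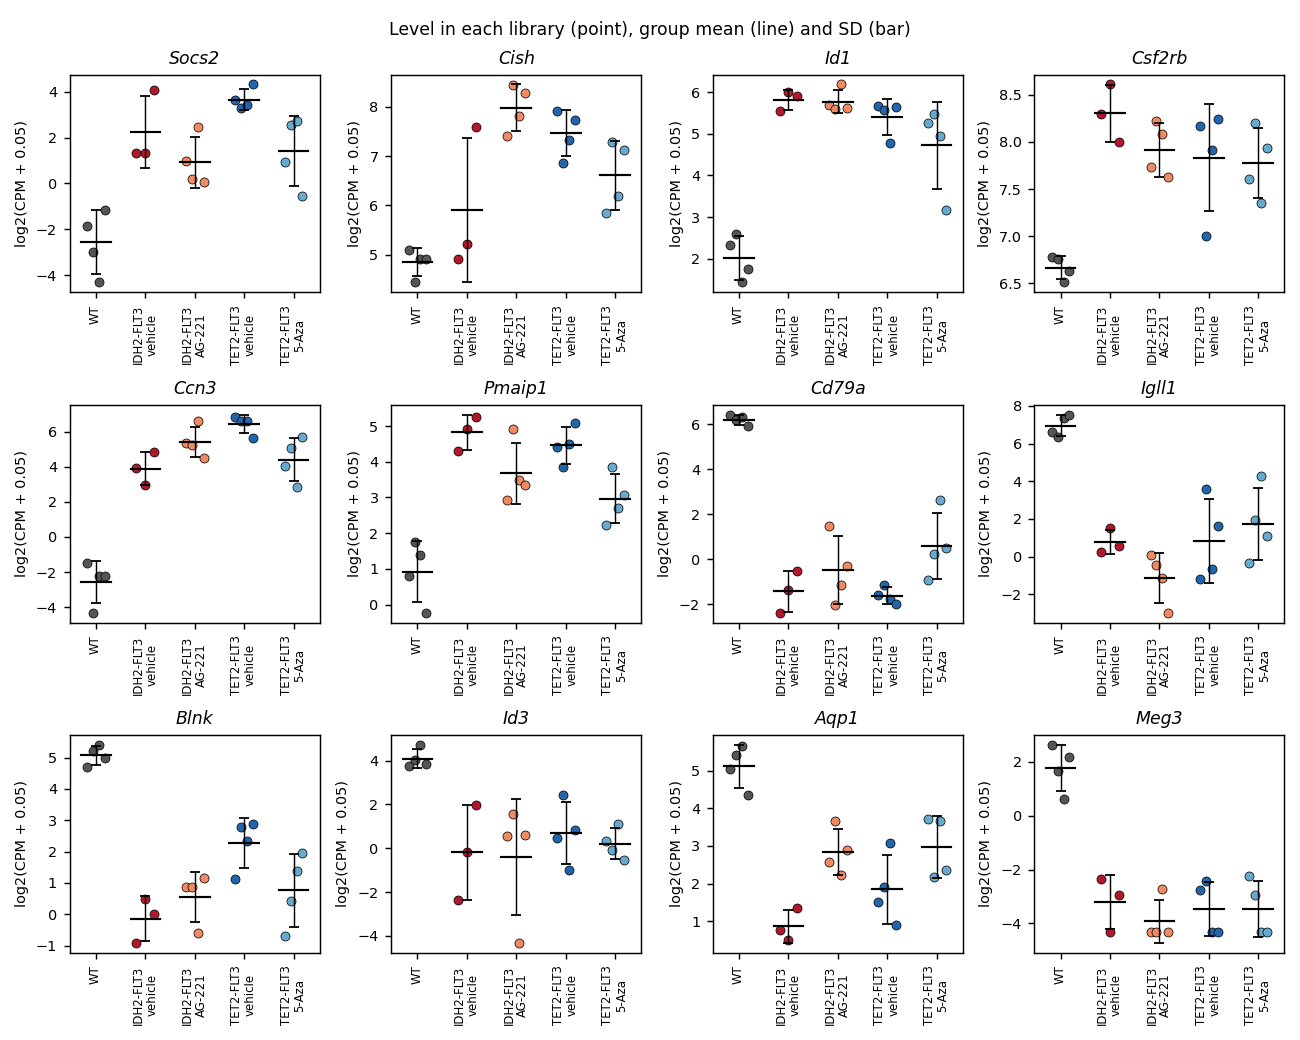
Level of 12 common genes in single libraries, as log2(CPM + 0.05), by group (points, libraries; line, mean; bar, SD). Socs2, Cish, Id1, Csf2rb, Ccn3 and Pmaip1 are higher and Cd79a, Igll1, Blnk, Id3, Aqp1 and Meg3 lower than wild type; of the 12, only Cish has leukemic libraries (V3-2 at 30.0 CPM) inside the wild-type range of 21.6 to 34.2 CPM.

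Of the gene lists examined, the B-cell list held the most of the lower genes. Of 15 tested B-cell genes, 14 fell in the leukemic mean and Cd37 did not pass the test; 11 of the 15 were common to all 4 groups, against 8.28% lower and 0.499% commonly lower over all accessions. Their median log2 difference was -5.78, against 0.06 over all genes. Cd79a, a signalling chain of the B-cell receptor, had 84.5, 73.4, 78.4 and 59.4 CPM in wild type, 0.337, 0.144 and 0.641 in IDH2-FLT3 vehicle and 0.403, 0.770, 2.78 and 0.195 with AG-221. With vehicle the TET2-FLT3 libraries had 0.409, 0.203, 0.246 and 0.288 CPM and with 5-Aza 0.485, 1.13, 6.07 and 1.35. The highest leukemic library, AZ16, was still below 59.4 to 84.5 CPM, the range of wild type, and the log2 difference was -6.71 ± 0.46 (adjusted p = 1.67e-08).

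Surrogate light chain genes, which mark the pre-B stage, were lower too. Igll1, which encodes lambda 5, had 97.2, 82.3, 162 and 186 CPM in wild type, 2.78, 1.15 and 1.44 in IDH2-FLT3 vehicle and 0.403, 0.0770, 1.01 and 0.684 with AG-221. Among the TET2-FLT3 libraries it had 12.0, 3.04, 0.574 and 0.384 CPM with vehicle and 0.728, 3.80, 19.1 and 2.08 with 5-Aza. V1 and AZ16 stood above the other leukemic libraries and below all wild-type ones, and the log2 difference was -5.90 ± 0.61 (adjusted p = 1.70e-06). Vpreb1, its partner in the surrogate light chain, was at 24.5 to 44.2 CPM in wild type and 0.779 to 5.18 in the leukemic libraries (-3.94 ± 0.34, adjusted p = 2.43e-07); reads may be split with its near-copy Vpreb2. Vpreb3, which assists assembly of the receptor, was at 49.8 to 106 CPM in wild type and 0 to 4.02 in the leukemic libraries (-7.23 ± 0.48, adjusted p = 1.67e-08).

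Signalling adaptors and surface molecules of B cells moved the same way. Blnk, the adaptor that links the pre-B receptor to calcium signalling, had 25.8, 37.1, 42.4 and 31.4 CPM in wild type, 1.35, 0.481 and 0.962 in IDH2-FLT3 vehicle and 0.604, 2.16, 1.77 and 1.76 with AG-221. TET2-FLT3 cells had 6.82, 7.29, 4.96 and 2.11 CPM with vehicle and 0.566, 1.29, 2.58 and 3.79 with 5-Aza. The TET2-FLT3 vehicle group kept the most, and the log2 difference was -4.09 ± 0.34 (adjusted p = 1.58e-07). Ms4a1, which encodes CD20, was at 26.0 to 42.6 CPM in wild type and 0 to 4.64 in leukemic libraries (-6.27 ± 0.66). The kinase Blk (-5.46 ± 0.50), the scaffold Bank1 (-4.02 ± 0.35) and Pou2af1, a B-cell coactivator of octamer factors (-6.67 ± 0.64), were also commonly lower. Pax5, the factor that commits cells to the B lineage, had 128 counts over the wild-type libraries (2.53, 2.42, 2.89 and 2.26 CPM) and 2 over the 15 leukemic libraries.

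The summed level of the 15 B-cell genes was 603.8 to 782.9 CPM in wild type and 52.1 to 161.7 CPM in the leukemic libraries. The wild-type sort removed lineage-positive cells, yet Ms4a1 had 42.6, 31.1, 26.0 and 31.2 CPM there; how much of the B-lineage difference came from other cells in the sort was not tested. With the 2 drug-treated groups alone, 14 of the 15 genes were still lower than wild type (2.44% of all accessions were), and without V3-2 and V5-2, 14 were as well. For 11 of the 15 the rule had already asked for a call in each drug-treated group, so both counts largely describe the choice. Igll1 and Vpreb1 lie next to each other on chromosome 16 among tested genes. Bank1 lies within 20 tested genes of Tet2 on chromosome 3. It was lower in both genotypes (-3.66 ± 0.62 in the IDH2-FLT3 vehicle group), and whether its position bears on its level was not tested.

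Other transcriptional and signalling regulators fell with these genes. Id3, a relative of Id1, moved the opposite way to it: it had 13.5, 16.2, 26.3 and 14.5 CPM in wild type, 0.843, 0.144 and 3.85 in IDH2-FLT3 vehicle and 0, 1.46, 1.43 and 2.93 with AG-221. With vehicle the TET2-FLT3 libraries had 5.32, 1.75, 0.451 and 1.34 CPM and with 5-Aza 1.21, 0.889, 2.12 and 0.631. All leukemic libraries were below wild type, and the log2 difference was -3.48 ± 0.57 (adjusted p = 3.06e-04). Trib2, a pseudokinase that directs protein degradation, was at 14.3 to 26.0 CPM in wild type and 0 to 3.56 CPM in leukemic libraries (-4.95 ± 0.51, adjusted p = 1.70e-06). Gng11, a G-protein gamma subunit, was at 67.1 to 116 and 2.97 to 39.5 CPM (-2.75 ± 0.31, adjusted p = 5.22e-06). Akap12, a kinase-anchoring scaffold (-3.47 ± 0.36), the zinc-finger factors Plag1 (-3.09 ± 0.35), Zfp831 (-2.07 ± 0.26) and Zfp612 (-4.40 ± 0.55), the bromodomain protein Cecr2 (-6.13 ± 0.55) and the splicing-factor kinase Srpk3 (-3.45 ± 0.40) were commonly lower too.

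Several lower members encode proteins of the cell surface or matrix and are described together by role, without a test of the grouping. Sdc4, a heparan sulfate proteoglycan, had 109, 84.8, 145 and 145 CPM in wild type, 1.77, 0.240 and 4.89 in IDH2-FLT3 vehicle and 6.74, 6.78, 6.57 and 9.18 with AG-221. In TET2-FLT3 mice it had 14.0, 12.8, 2.26 and 8.93 CPM with vehicle and 6.96, 19.1, 13.7 and 10.8 with 5-Aza. No leukemic library came near the wild-type range, and the log2 difference was -4.18 ± 0.38 (adjusted p = 3.72e-07). Chst3, which sulfates chondroitin, was at 8.53 to 14.2 CPM in wild type and 0 to 0.401 in leukemic libraries (-6.50 ± 0.53). The metalloproteinase Mmp2 (-3.27 ± 0.37) and its membrane-bound activator Mmp14 (-4.33 ± 0.43) were both lower, as were the semaphorin Sema3d (-4.42 ± 0.34) and the semaphorin receptors Plxna2 (-4.60 ± 0.55) and Plxnc1 (-1.11 ± 0.19). Gas6, the ligand of the TAM receptor kinases, was at 8.15 to 19.2 CPM in wild type and 0.0961 to 2.58 in leukemic libraries (-3.66 ± 0.43). Sfrp1, a secreted Wnt antagonist, had 229 counts over wild type and 9 over the leukemic libraries, and Clec14a, a C-type lectin of endothelium, 137 and 6.

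Imprinted genes included Meg3 and Ndn. Meg3, a maternally expressed noncoding RNA, had 6.05, 3.10, 1.49 and 4.51 CPM in wild type for its accession NR_027652, and 194 counts over the 4 libraries against 10 over the 15 leukemic ones. Its other accession, NR_003633, had 159 counts against 12. Ndn, a paternally expressed growth suppressor of quiescent stem cells, had 12.6, 7.62, 15.9 and 15.6 CPM in wild type, 0, 0 and 0.401 in IDH2-FLT3 vehicle and 0.302, 0.308, 0.0842 and 0 with AG-221. Among the TET2-FLT3 libraries it had 3.68, 0, 0.205 and 0.192 CPM with vehicle and 1.46, 0.485, 0.228 and 0.451 with 5-Aza. V1 had the most of the leukemic libraries and no leukemic library reached the wild-type range (-5.21 ± 0.70, adjusted p = 3.58e-05). Of 22 listed imprinted genes 8 were tested; Phlda2, Peg12, Ndn and Meg3 fell (50% of the 8, against 8.27% over all genes) and none rose, with a median of -2.12.

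The lower members described next have varied roles and include some channels and transporters. Aqp1, a water channel of red cells, had 33.2, 42.7, 50.5 and 20.3 CPM in wild type, 1.35, 1.64 and 2.48 in IDH2-FLT3 vehicle and 4.63, 7.39, 5.89 and 12.7 with AG-221. With vehicle the TET2-FLT3 libraries had 3.68, 1.82, 8.45 and 2.78 CPM and with 5-Aza 13.2, 4.45, 12.6 and 5.05. All leukemic libraries were below wild type (-2.94 ± 0.33, adjusted p = 5.05e-06). Abcb4, a phospholipid transporter, was lower by -2.76 ± 0.33. Cacna1i, a calcium channel, had 97 counts in wild type and none in any leukemic library, which makes it at least 123-fold lower at a limit of 3 counts over the 15 libraries, and Nudt10, a diphosphoinositol phosphatase, had 60 and none, at least 77.6-fold lower. Nudt11, its near-identical neighbour on the X chromosome, had 105 and 9 counts, and reads may be split between the pair. Small counts also stood behind Kcnk3, a potassium channel (284 and 63), Smtnl1 (107 and 4), Pxdc1 (80 and 7) and Rpl39l, a copy of Rpl39 (80 and 3).

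The last of the lower genes ranged from -4.71 ± 0.52 for 9530091C08Rik to -1.10 ± 0.17 for Nceh1, which hydrolyses cholesterol esters. Between them stood Exph5, a vesicle-trafficking effector (-4.05 ± 0.59), Wfdc18 (-4.40 ± 0.53), the oxidase subunit Cox6a2 (-4.32 ± 0.39), the glycosyltransferase Gcnt2 (-3.44 ± 0.40), carboxypeptidase M, Cpm (-3.20 ± 0.48), and Efcc1 (-3.14 ± 0.25). The exchange factor Arhgef28 (-2.93 ± 0.37), Bex1 (-2.92 ± 0.37), Cpxm1 (-2.84 ± 0.45), Gm8369 (-2.76 ± 0.44) and Pcp4l1 (-2.56 ± 0.28) followed. Cplx2, which binds SNARE complexes (-2.45 ± 0.28), the phosphatase Ptpn14 (-2.44 ± 0.35) and Itsn1, an endocytic scaffold (-2.06 ± 0.27), completed the set. A second Gcnt2 accession, NM_023887, was not common: it was lower in TET2-FLT3 vehicle and at 0.13 in 5-Aza on the log2 scale.

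At the edge of the rule, the member accessions with the highest p in any group were Socs2 NM_001168655 (0.0462), Cpm (0.0465), Cpxm1 (0.0478), Exph5 (0.0485) and S100a4 (0.0489). Just outside it were Inha (0.0515), Ctse (0.0536), Socs2 NM_001168656 (0.0556), Bex4 (0.0557) and Clip3 (0.0562).

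Beyond the common genes, pathway and lineage lists were described by how many tested members passed the test in the leukemic mean. Over all tested genes, 2.99% were higher and 8.27% lower. Of 15 STAT5 target genes, Cish, Socs2, Pim1, Pim2, Id1 and Ccr2 rose and Spred1 fell. Their median log2 difference was 0.60, against 0.06 over all genes. By group this median was 0.17 in IDH2-FLT3 vehicle, 0.83 with AG-221, 1.125 in TET2-FLT3 vehicle and 0.52 with 5-Aza. Of 15 genes of MAPK feedback, 8 fell (Dusp4, Dusp6, Spry2, Spry4, Spred1, Spred2, Etv5 and Egr1) and 7 did not pass the test, among them Dusp5 at 1.72 (adjusted p = 0.082), and the median was -1.11. None of the 15 was common. Dusp6, a phosphatase of ERK, was at 60.4 to 124 CPM in wild type, 11.7 to 23.9 in the IDH2-FLT3 and 10.8 to 19.99 in the TET2-FLT3 libraries given vehicle, all below wild type. With AG-221 it was at 33.9 to 73.1 CPM and with 5-Aza at 10.6 to 124, which overlap wild type. With only the 2 drug-treated groups against wild type, 1 of the 15 passed the test as lower (2.44% of all accessions did). The median of the 15 was then -0.997. Taken singly, the groups had medians of -1.57 in IDH2-FLT3 vehicle, -0.80 with AG-221, -1.71 in TET2-FLT3 vehicle and -0.46 with 5-Aza. Of the 15 genes 7 differed among the leukemic groups, against 11.9% of all tested genes. In the drug-treated groups alone, 4 of the 15 STAT5 targets were higher (0.871% of all accessions were), with a median of 0.68. Of these, 3 (Cish, Socs2 and Id1) were common genes, for which the rule had already asked for a call in each drug-treated group. Of 27 genes of the FLT3 signalling pathway itself, 1 passed the test (3.7%, under the share of lower genes overall). It was Foxo1, a factor that AKT inactivates, which had 58.2, 37.5, 58.8 and 47.3 CPM in wild type and 8.62 to 32.3 in leukemic libraries (-1.47 ± 0.23, adjusted p = 1.60e-04).

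Lists of other lineages are set against the same shares, with 0.506% of all tested genes commonly lower. Of 18 erythroid genes, 15 fell (83.3%), with a median of -2.96, and 1, Aqp1, was common (5.56%). Their summed level was 2473 to 3230 CPM in wild type, 285.9 to 702 in IDH2-FLT3 vehicle and 425.4 to 837.2 in the TET2-FLT3 vehicle group. With AG-221 the sum was 1029 to 2204 CPM and with 5-Aza 1020 to 2267. Of 18 stem-cell genes, 10 fell (55.6%), with a median of -1.23, and 1, Ndn, was common. The stem-cell median was -2.79 in IDH2-FLT3 vehicle, -0.80 with AG-221, -1.06 in TET2-FLT3 vehicle and -0.60 with 5-Aza. Of these 18 genes 8 differed among the leukemic groups, against 11.9% of all tested genes. Among 18 lymphoid-primed genes 10 fell, 2 of them common (Igll1 and Blk; 11.1%), and 9 of 17 T- and NK-cell genes fell with none common. In the drug-treated groups alone, 6 erythroid genes and 1 stem-cell gene passed the test as lower than wild type, against 2.44% of all accessions, with medians of -1.79 and -0.76. The rule had already chosen 1 of these erythroid genes, Aqp1, and the stem-cell gene, Ndn, on these groups. Of 20 granulocyte-monocyte progenitor genes 3 rose, of 17 monocyte genes 5 rose and 2 fell, of 19 neutrophil genes only Padi4 rose, and of 30 G2/M genes Cdk1, Bub1b, Aurkb, Cdc20 and Anln rose. None of 28 S-phase genes and none of 10 MHC class II genes passed the test. The MHC class II median was 1.39 in IDH2-FLT3 vehicle, 0.91 with AG-221, 1.41 in TET2-FLT3 vehicle and -1.39 with 5-Aza. In the same order the neutrophil medians were 1.79, 1.66, -0.78 and -0.94, and the granulocyte-monocyte progenitor medians 2.16, 0.67, 0.26 and 0.06. Of the MHC class II genes 5, of the 19 neutrophil genes 16 and of the 20 progenitor genes 13 differed among the leukemic groups. Of all tested genes 11.9% did, so these means average unlike values. Scaling by library totals alone left 0 of the 30 G2/M genes higher and 15 of the 18 stem-cell genes lower.

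**Figure D3:**
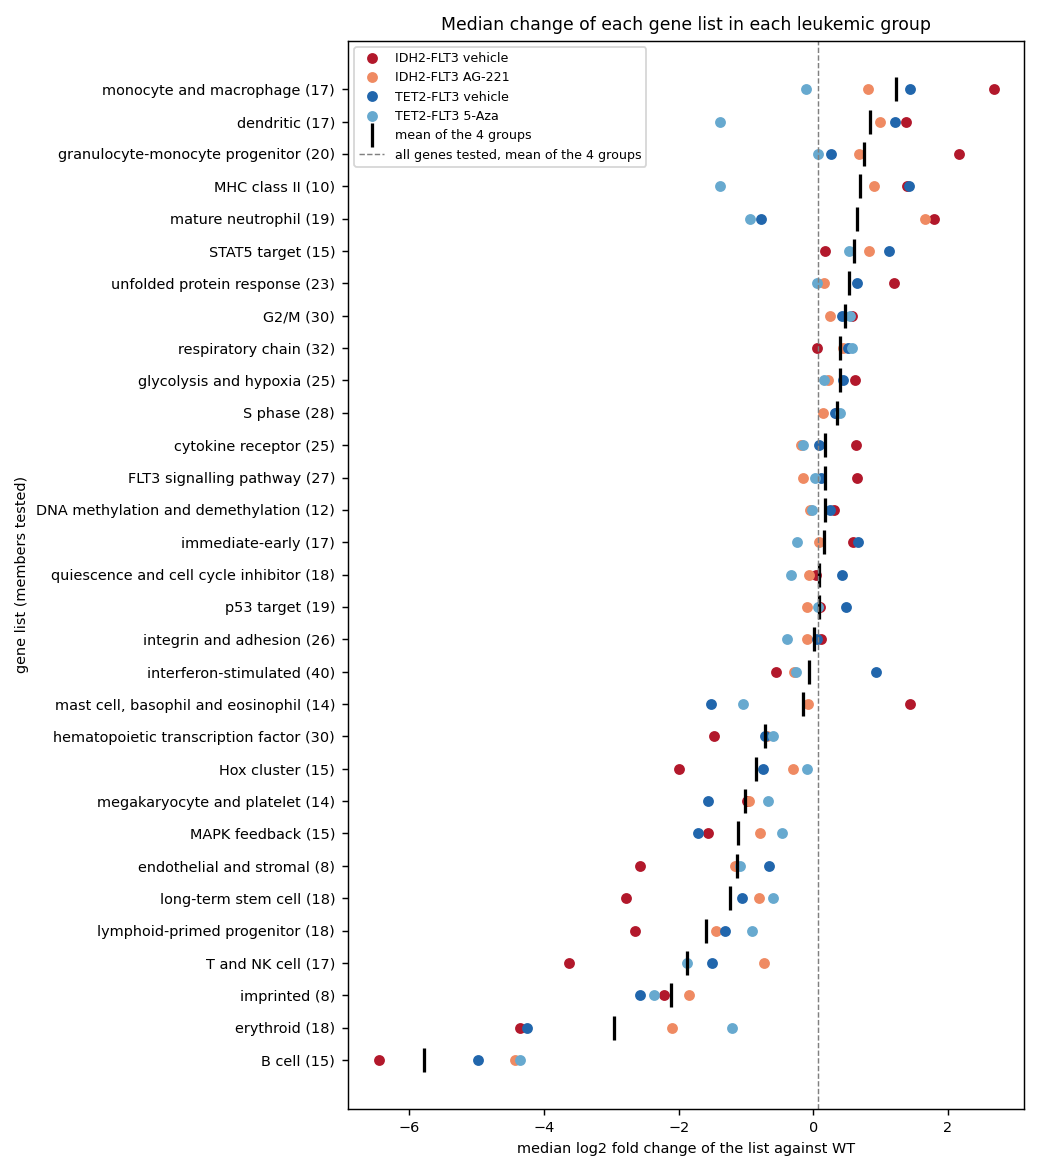
Median log2 difference from wild type of each gene list with at least 8 tested members (31 lists), for the 4 leukemic groups (coloured dots) and their mean (black tick), with all tested genes as a dashed line. The B-cell list lies lowest, with medians of -6.46 (vehicle) and -4.43 (AG-221) in IDH2-FLT3 mice and -4.98 (vehicle) and -4.35 (5-Aza) in TET2-FLT3 mice; the erythroid list follows at -4.36, -2.10, -4.25 and -1.20.

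Agreement in sign did not mean equal size among the leukemic groups. Over all accessions 1384 (11.7%) differed among the 4 groups, and of the 1330 called against wild type 431 did (32.41%). With V3 and V3-2 summed, and V5 and V5-2, the first count was 803, and without V3-2 and V5-2 it was 825; the counts that follow were not recomputed that way. Among the common accessions 7 of 34 higher and 17 of 59 lower differed. Between genotypes over both arms, 498 accessions differed (4.21% of those tested); of the common ones Actr3b was the only higher accession, and 9 lower accessions differed. The widest of these was Sema3d, a secreted semaphorin, which had 23.2, 16.1, 42.9 and 41.4 CPM in wild type, 0, 0.0481 and 0.240 in IDH2-FLT3 vehicle and 1.41, 0.539, 0.926 and 1.95 with AG-221. TET2-FLT3 cells had 6.95, 3.78, 3.90 and 8.06 CPM with vehicle and 4.12, 7.11, 7.74 and 6.22 with 5-Aza. Both IDH2-FLT3 groups lay below both TET2-FLT3 groups, by -4.10 ± 0.44 on the log2 scale (adjusted p = 1.27e-05).

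Some genes that passed the test in the leukemic mean fell outside the common rule, and several of them had groups of opposite sign. Ifi44l, an interferon-induced gene, had 31.6, 28.4, 70.1 and 85.9 CPM in wild type, 0.337, 0.0481 and 0 in IDH2-FLT3 vehicle and 0.403, 0.0770, 0.0842 and 0 with AG-221. In TET2-FLT3 mice it had 161, 172, 150.4 and 108 CPM with vehicle and 16.9, 32.3, 20.3 and 21.9 with 5-Aza. It was near 0 in the IDH2-FLT3 libraries and above wild type in TET2-FLT3 vehicle, so its leukemic mean of -4.28 ± 0.34 (adjusted p = 6.68e-08) averages unlike values. Ccnb1ip1 and Xlr4a had log2 differences below 0 in both IDH2-FLT3 groups and above 0 in both TET2-FLT3 groups, and Ifi44 and Ifit1 were above 0 in TET2-FLT3 vehicle alone. Itgae, the integrin subunit CD103, was split by drug: its log2 difference from wild type was 6.28 and 6.93 in the vehicle groups of IDH2-FLT3 and TET2-FLT3 mice and 6.41 with AG-221, but -0.38 with 5-Aza, where it had 0.324, 0.242, 0.379 and 0.631 CPM. 5-Aza differed from vehicle by -7.32 ± 1.06 (adjusted p = 0.00198). Gata1 and Hlf had log2 differences below 0 in all 4 groups, but their levels changed with a drug. Gata1, the erythroid master regulator, was at 26.7 to 60.3 CPM in wild type, 1.09 to 2.43 in vehicle-treated TET2-FLT3 mice and 9.47 to 28.4 under 5-Aza (5-Aza minus vehicle 3.37 ± 0.53, adjusted p = 0.00243). Hlf, a factor of stem cells, was at 626 to 1061 CPM in wild type and 14.9 to 63.2 in IDH2-FLT3 vehicle, and at 189 to 442 with AG-221 (AG-221 minus vehicle 3.25 ± 0.52, adjusted p = 0.00277). Every leukemic library was below every wild-type library for Hlf, and its leukemic mean differed by -2.36 ± 0.30.

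Drug effects within genotype were independent of the comparison with wild type only in part, since each treated group also entered the rule. AG-221 changed 1145 accessions against vehicle (9.68%), 519 higher (4.39%) and 626 lower (5.29%). None of the 34 higher common accessions moved toward wild type at the threshold, and Gldc and Lrp12 moved away. Gldc had 0.169, 0.144 and 2.33 CPM with vehicle and 39.5, 49.6, 41.7 and 27.9 with AG-221, against 0.0766, 0, 0.0826 and 0.161 in wild type. The 2 groups did not overlap (5.53 ± 0.94, adjusted p = 0.00342), and V3 and V3-2 were close to wild type. Of the 59 lower common accessions 10 moved toward wild type, among them Pou2af1, Gcnt2, Sema3d, 9530091C08Rik, Bex1, Aqp1, Efcc1, Zfp831 and Kcnk3. Gcnt2 rose from 0.843, 0.240 and 2.81 CPM with vehicle to 6.84, 25.2, 14.1 and 9.77 with AG-221 (3.47 ± 0.72, adjusted p = 0.0109), against 64.8, 43.6, 68.7 and 87.8 in wild type. Aqp1 changed by 2.07 ± 0.56 (adjusted p = 0.029) and remained below every wild-type library. The median log2 change with AG-221 was -0.08 over the higher and 0.82 over the lower accessions.

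5-Aza changed 222 accessions against vehicle (1.88%), 51 higher (0.431%) and 171 lower (1.45%). Actr3b (-1.70 ± 0.38, adjusted p = 0.021) and Bhlhe40 (-1.19 ± 0.28, adjusted p = 0.0275) moved toward wild type among the higher genes, and Ptgir, the prostacyclin receptor, moved away (1.15 ± 0.28, adjusted p = 0.0333). Among the lower genes only Cd79a moved toward wild type (3.02 ± 0.77, adjusted p = 0.0448), with library AZ16 far above the other treated ones. The median change was -0.53 over the higher and 0.29 over the lower accessions. By sign alone, 28 of 34 higher and 35 of 59 lower accessions lay toward wild type with 5-Aza, and 19 and 40 with AG-221. These signs share their vehicle libraries with the rule, and the same share over all accessions was not counted. The sign counts are therefore not read as an effect of the drugs.

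**Figure D4:**
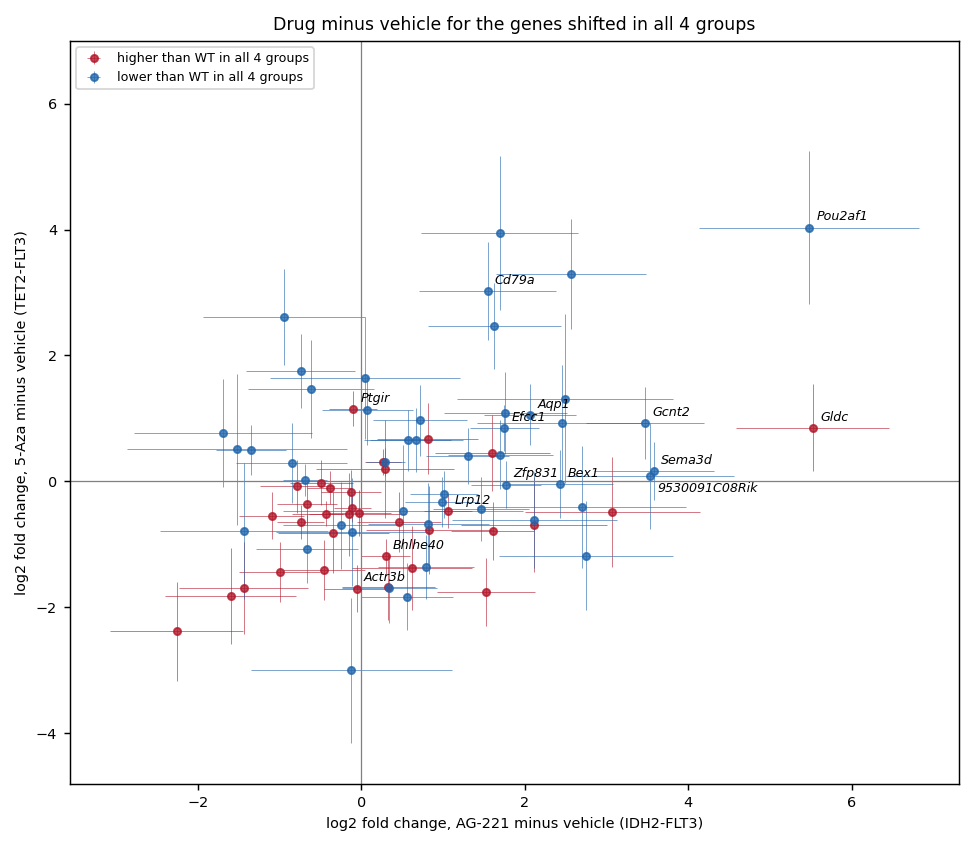
Log2 change of AG-221 against vehicle in IDH2-FLT3 mice (horizontal axis) and of 5-Aza against vehicle in TET2-FLT3 mice (vertical axis) for 81 common accessions with counts in every group (points; bars, SE), coloured by direction against wild type and named where either drug passed the test. Gldc (5.53 with AG-221) lies furthest right, and Cd79a (3.02 with 5-Aza) is the lower accession named for 5-Aza.

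Common calls differed in how far they rested on single libraries. Across 19 fits that each left out 1 library, 11 higher accessions (among them Ccn3, Id1, Emilin2, Bhlhe40 and Actr3b) and 19 lower ones (among them Cd79a, Vpreb3, Blnk, Pax5 and Sdc4) stayed common every time. Padi4 lost the common call without V3. Igll1 and Sema3d lost it without AZ10, AZ11, AZ17, wt3 or wt4, and Csf2rb without AZ11, AZ17 or any 1 of the wild-type libraries. Gldc lost it without V9 or any 1 of the wild-type libraries. Cish stayed common in 7 of the 19 fits, Socs2 in 11, Ndn in 7 and Id3 in 3. The difference of the leukemic mean from wild type passed the test in all 19 fits for 90 of the 93 accessions, and Smtnl1, Nudt11 and Nudt10 were too low to be tested in 3 of them.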

How the data were processed

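RNA of 19 libraries of sorted, uncultured LSK cells was analysed in 5 groups given by the labels; polyA RNA was made into libraries with a SMARTer low-input kit, per the labels' protocols. The submitters' processing notes name mm9, the aligner STAR (2.4.0f1) and the counter featureCounts (Subread 1.4.5-p1); whether the counting used strand is not given in the sources used here. The deposited count table holds raw counts for 33862 RefSeq accessions, and the authors' deposited FPKM table holds FPKM for the same accessions. Names came from RefSeq for 33481 accessions and from GENCODE for 192; the 189 left unnamed took 3.47% of counts. Reads that fit more than 1 accession of a gene may have been lost.

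Counts were tested in R 4.3.3 with edgeR 4.0.16: filterByExpr (minimum count 10) kept 11830 accessions, scaling was by TMM (factors 0.761 to 1.22), and the quasi-likelihood model with a mean for each of 5 groups had 14 residual degrees of freedom per accession. The contrast gave each leukemic group a weight of 0.25. Differences with a Benjamini-Hochberg adjusted p under 0.05, over all accessions, were called; the common rule asked for a call in the mean and in each of the 4 groups with 1 sign. CPM used library totals multiplied by TMM factors, mean log2 differences are fitted values with standard errors, and a group at 0 counts was bounded by 3 counts over its libraries, for counting error only. In data simulated for the mean contrast on 11830 accessions, 19.4%, 76.1% and 92.4% of 2-, 4- and 8-fold changes were called. Of the same changes 2.99%, 38.8% and 69.7% were common. There were 8 false calls in the mean and 0 false common calls among 11342 unchanged accessions. Simulated libraries were independent, and changed accessions had the same fold in all 4 leukemic groups. The simulation therefore does not cover libraries that share an animal or leukemic groups that differ among themselves.

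Named genes were fixed targets, the 15 common genes per direction with the largest shift among those of at least 5 CPM on the higher side and without overlap, common members of the lists, and the 6 called genes per direction that differed most among groups. The common genes, named genes and 33 gene lists were chosen with earlier results of these data known. The other common genes were also given, except 2 that are not reported here, which the plots of single accessions leave out as well; counts and medians include them. Alternatives were DESeq2 1.42.0, limma 3.58.1 (voom with quality weights, and trend on log2(FPKM + 1) and log2(FPKM + 0.1)), other scalings and filters, a minimum fold of 1.5, summed or left-out libraries, and pooled or partial leukemic groups. Promoter windows are from RefSeq (GRCm38.p6).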

Additional observations from a re-analysis of the deposited data

Results flagged for a closer look

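Single libraries stood apart from the other 3 of their group for 10 of 112 groups of 4 libraries, over 28 genes examined; the limit used passes about 1 group in 20 by chance, and the groups of 3 were not examined. Id1 was high in AG1 (72.78 CPM) and low in V5-2 (27.23 CPM), both still above wild type. Pmaip1 reached 30.09 CPM in AG13, the highest of the AG-221 libraries, and Itgae reached 153.4 CPM in the same library against 6.84, 7.24 and 10.02 CPM in the other AG-221 libraries. Sdc4 in AG13 was at 9.183 CPM. AZ16 was high for the B-lineage genes Cd79a (6.07 CPM) and Igll1 (19.12 CPM). Gldc was at 14.25 CPM in AZ17, Ndn at 3.682 CPM in V1, and the Meg3 accession NR_027652 at 0.1007 CPM in AG1, where 1 count was seen.

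The size of the shift differed between genotypes (IDH2-FLT3 minus TET2-FLT3 over both arms, edgeR's quasi-likelihood test) for 7 of the 28 genes, against 4.21% of all accessions. Some of the 28 were named because they differed most among the leukemic groups, so the count follows in part from that choice. Ifi44l differed most, by -8.767 ± 0.50 (adjusted p = 6.93e-10), and Sema3d by -4.1 ± 0.44 (adjusted p = 1.27e-05), each lower in IDH2-FLT3. Actr3b (-1.915, adjusted p = 5.62e-04), Hlf (-1.528, adjusted p = 0.00785), Gng11 (-1.471, adjusted p = 0.0154) and Blnk (-1.449, adjusted p = 0.0393) were lower in IDH2-FLT3 as well. Itgae was higher in IDH2-FLT3 (3.066, adjusted p = 0.00714), with the 5-Aza group near wild type.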

How the results depend on the processing

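Counts of accessions are given as higher and lower. The main values were 351 and 979 in the leukemic mean, 34 and 59 common, and 1384 differing among the leukemic groups. With library totals alone they were 198 and 1573, and 22 higher common, with the median of all accessions at -0.16 instead of 0.05 on the log2 scale and 11.2% of the called accessions higher instead of 26.4%. A filter of 5 CPM in 3 libraries left 645 lower. DESeq2 gave 557 higher, 138 lower common and 2682 among groups. Limma-voom with quality weights gave 1550 and 2314 (40.1% higher), and 77 and 250 common. Limma on log2(FPKM + 1) gave 214 and 1766 (10.8% higher), and 16 and 336 common, and on log2(FPKM + 0.1) 213 and 1566 (12% higher), and 16 and 194 common. A minimum fold of 1.5 left 109 and 503, and 15 and 35 common. Summing V3 with V3-2 and V5 with V5-2 gave 803 among groups. Leaving out V3-2 and V5-2, a setting chosen after seeing the data, gave 552 higher and 825 among groups. All 15 leukemic libraries as 1 group gave 107 and 309, the vehicle groups alone 999 higher (42.1% of calls), and the drug groups alone 103 and 289. Leaving out 1 library at a time gave 125 to 458 higher and 463 to 1243 lower, 15 to 38 and 25 to 76 common, and 745 to 2232 among groups; common counts moved by over 1.5 times without AZ10, AZ11, AZ16, AZ17, wt1, wt3 or wt4, and those among groups without V3, V3-2, V9, V5-2 or AZ16. Cd34 reversed sign with FPKM (-0.04162 and -0.1246) and in the drug groups (-0.09006), Xlr4a with pooled libraries (0.3134) and in the drug groups (0.283), and Csf1r in the drug groups (-0.2235); of 7460 gene and setting pairs, 6 reversed and 523 lost the call. Fewer libraries leave fewer degrees of freedom; other causes were not tested. No paired analysis was possible because the numbers in the column headers of the leukemic libraries could not be matched to the replicate numbers in the labels.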

Other observations

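Outside the common genes, several surface receptors changed in the leukemic mean. Il7r, the IL-7 receptor of lymphoid progenitors, fell (-4.33 ± 0.60, adjusted p = 5.60e-05), with 33.0, 33.0, 55.5 and 52.9 CPM in wild type and 0 to 11.8 CPM in leukemic libraries, and missed the common rule only in AG-221 (adjusted p = 0.142). Epor, the erythropoietin receptor, fell (-3.34 ± 0.56) and Il18r1, the IL-18 receptor, rose (1.96 ± 0.61). The next counts are set against 2.99% higher and 8.27% lower over all tested genes. Of 26 adhesion genes 4 rose (Itgae, Itgb7, Selplg and Cd48) and 5 fell (Itga2, Itga9, Esam, Jam2 and Jam3). Of 17 T- and NK-cell genes, Thy1 rose (2.83 ± 0.53) while 9 fell, among them Cd3e (-4.72 ± 0.57) and Cd2 (-6.22 ± 0.63). Of 14 megakaryocyte genes 6 fell, including Pf4 (-2.71 ± 0.49) and Gp5 (-2.63 ± 0.45). The complement genes C1qa (-2.54 ± 0.67) and C1qb (-2.63 ± 0.68) fell in the leukemic mean, but their log2 differences were 0.64 and 0.56 with AG-221 and the groups differed (adjusted p = 0.00521 and 0.00588 in edgeR's quasi-likelihood test), so the mean averages unlike values. Other monocyte genes, Adgre1 (3.00 ± 0.51), Ccr2 (2.06 ± 0.48), Cx3cr1 (1.57 ± 0.34), Klf4 (1.54 ± 0.49) and Emilin2, rose in the leukemic mean. Of the 17 monocyte genes 13 differed among the leukemic groups, against 11.9% of all tested genes. Their median was 2.68 in IDH2-FLT3 vehicle, 0.82 with AG-221, 1.44 in TET2-FLT3 vehicle and -0.10 with 5-Aza. With the drug-treated groups alone, 2 of the 17 were higher than wild type (0.871% of all accessions were).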
